A study of Homo sapiens with 12 samples.

Results

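Matrix metalloproteinases (MMPs) are zinc-dependent proteases that cut collagens, gelatins, laminins and other proteins of the extracellular matrix. Most are secreted as inactive proenzymes whose propeptide has to be removed, and some, the membrane-type MMPs, stay anchored at the cell surface. Tissue inhibitors of metalloproteinases (TIMPs) block the active site of the enzymes, and in breast tumours the balance of enzymes and inhibitors is known for its part in invasion through the basement membrane. The genes described here were 10 of the 29744 gene entries of the count table, taken by their symbols: MMP1, MMP2, MMP3, MMP7, MMP9, MMP10, MMP13, MMP14, MMP15 and TIMP1. All 10 symbols were found in the table.

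RNA-seq was available from 4 groups of 3 libraries. The groups were MB157R iN1-ICD, MB157R iEV, MB157 iSOX2 and MB157 iEV. MB157 is an established triple-negative breast cancer (TNBC) cell line that carries a deletion inside NOTCH1, which makes the receptor constitutively active. MB157R is 1 population derived from it by 25 weeks of growth in 1 µM of the γ-secretase inhibitor (GSI) LY3039478. The inhibitor blocks the release of the intracellular domain of NOTCH (N1-ICD), and the sources used here do not say whether MB157R cells were in GSI when RNA was taken. The cells of each group carried a doxycycline-inducible lentiviral construct: an empty vector (iEV), SOX2 (iSOX2) or NOTCH1 without its extracellular domain (iN1-ICD). All 4 groups, the iEV controls included, received 1 µg/ml of doxycycline for 72 h. The comparisons were MB157R iEV with MB157 iEV, MB157 iSOX2 with MB157 iEV, and MB157R iN1-ICD with MB157R iEV. The first comparison shares its MB157 iEV libraries with the second and its MB157R iEV libraries with the third, so results of comparisons that share libraries are not independent of each other.

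Levels are given as TMM-scaled CPM, which puts the counts of all libraries on 1 scale, in the order of replicates 1, 2 and 3. Means are given ± SD of 3 libraries. Library totals lay between 32773820 and 49055208 estimated counts, and bounds and intervals from counts cover counting error only. Changes were tested with edgeR's quasi-likelihood test over all genes of the authors' filtered table for each comparison, with Benjamini-Hochberg adjustment, and a change was called below 0.05. The labels were checked on the transgenes. SOX2 stood at 308 ± 23.3 CPM in MB157 iSOX2 and 7.10 ± 0.544 CPM in MB157 iEV, and NOTCH1 at 2322 ± 486 CPM in MB157R iN1-ICD and 92.4 ± 8.39 CPM in MB157R iEV. HEY2 and HEYL, targets of NOTCH, had 0 counts in MB157R iEV. All 6 epithelial markers listed (EPCAM, KRT8, KRT18, KRT19, CDH1 and CLDN4) averaged at least 1 CPM in every group. Of the receptors that define TNBC by their lack, ESR1 reached at most 2.08 CPM in any library and PGR at most 5.46 CPM, while ERBB2 reached 168 CPM.

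In resistant cells the mRNAs of MMP1, MMP2, MMP10, MMP13 and MMP14 averaged between 46.5 and 839 CPM, whereas the drug-sensitive line stayed below 1 CPM for each of them. MMP14 (chromosome 14, 22836560 to 22849041 on GRCh38) encodes MT1-MMP, a membrane-anchored collagenase that also activates the MMP2 proenzyme. It stood at 809, 798 and 910 CPM in MB157R iEV, against 0.524, 0.475 and 0.638 CPM in MB157 iEV. The 3 MB157R libraries all lay above the 3 MB157 libraries, by 1538-fold between the means (log2 fold change 10.58, standard error 0.10, adjusted p = 5.9e-17). MMP2 (chromosome 16, 55389700 to 55506691) encodes gelatinase A, which degrades type IV collagen of the basement membrane. It stood at 362, 376 and 392 CPM in MB157R iEV, against 0.0616, 0.190 and 0.123 CPM in MB157 iEV. The MB157 values rest on 15 counts over the 3 libraries, and the means differed 3021-fold (log2 fold change 11.47, standard error 0.10, adjusted p = 4.9e-17). In RNA from whole cultures, fewer cells that express a gene and less RNA of it per cell cannot be told apart.

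Among the collagenases, which cut fibrillar collagen, MMP1 (chromosome 11, 102789401 to 102798160) stood at 378, 379 and 405 CPM in MB157R iEV, against 0 counts in each MB157 iEV library. Set against a floor of 3 counts over the MB157 group, MMP1 was at least 14934-fold higher in MB157R (adjusted p = 1.0e-15). MMP13 (chromosome 11, 102942995 to 102955732), collagenase 3, stood at 50.8, 50.9 and 37.9 CPM in MB157R iEV, against 0.123, 0.0475 and 0.0736 CPM in MB157 iEV, which is 9 counts in all. The means differed 571-fold (log2 fold change 9.17, standard error 0.23, adjusted p = 3.9e-13). MMP10 (chromosome 11, 102770502 to 102780628), stromelysin 2, cuts proteoglycans and laminin and can activate other proMMPs. It stood at 106, 112 and 71.2 CPM in MB157R iEV, against 0 counts in MB157 iEV, and was at least 3662-fold higher in MB157R by the same floor (adjusted p = 9.0e-11). Its close paralog MMP3 (chromosome 11, 102835801 to 102843609), stromelysin 1, was not detectable beyond single reads, with 2 counts over the 3 MB157R iEV libraries and 0 in MB157 iEV, and it was not tested in any comparison. Because MMP3 and MMP10 are similar in sequence, the deposited estimates may divide shared reads between them.

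The other members differed less. MMP7 (chromosome 11, 102520508 to 102530750) encodes matrilysin, a small MMP of epithelial cells. It stood at 28.6, 25.1 and 18.7 CPM in MB157R iEV, against 12.3, 11.6 and 13.9 CPM in MB157 iEV, so that it was expressed in both lines and 1.91-fold higher in MB157R (log2 fold change 0.93, standard error 0.13, adjusted p = 1.6e-05). MMP15 (chromosome 16, 58025754 to 58046901), which encodes the membrane-anchored MT2-MMP, was the single member that was lower in the resistant cells. It stood at 40.6, 43.2 and 43.0 CPM in MB157R iEV, against 50.5, 52.5 and 47.8 CPM in MB157 iEV (log2 fold change -0.25, standard error 0.05, adjusted p = 3.9e-04). TIMP1 (chromosome X, 47582408 to 47586789), which inhibits most secreted MMPs, stood at 19.1, 20.5 and 20.3 CPM in MB157R iEV, against 14.5, 14.99 and 14.2 CPM in MB157 iEV, a 1.37-fold rise (log2 fold change 0.46, standard error 0.06, adjusted p = 1.1e-05). MMP9 (chromosome 20, 46008908 to 46016561), gelatinase B, had been removed by the authors' filter in this comparison. It stood at 2.34, 2.89 and 1.23 CPM in MB157R iEV, against 0.401, 0.404 and 0.196 CPM in MB157 iEV. In a second fit over genes with a mean count of at least 5, where 42.9% of genes were called higher, MMP9 was higher in MB157R (log2 fold change 2.76, standard error 0.39, adjusted p = 2.5e-05).

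Of the 10 members 8 were tested in the authors' filtered table, of which 7 were higher in MB157R and 1 was lower, with a median log2 fold change of 9.87. Over all 11435 genes tested, 45.0% were called higher and 45.3% lower, and the median log2 fold change was -0.00. MMP1, MMP2, MMP10, MMP13 and MMP14 passed the filter through their MB157R libraries alone and so had to differ. Their adjusted p-values in this comparison therefore add nothing to their levels, and their share is no support for a change of the family. The plot of levels by library shows which members were near 0 in the MB157 background and which were not.

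Overexpression of SOX2 in MB157 moved the inhibitor and matrilysin in opposite directions. TIMP1 stood at 57.0, 55.0 and 53.3 CPM in MB157 iSOX2, against 14.5, 14.99 and 14.2 CPM in MB157 iEV. It was 3.79-fold higher with SOX2 (log2 fold change 1.92, standard error 0.05, adjusted p = 6.5e-15), and these were its highest levels in any group. MMP7 stood at 5.00, 4.59 and 4.95 CPM in MB157 iSOX2, against 12.3, 11.6 and 13.9 CPM in MB157 iEV. It was 2.61-fold lower with SOX2 (log2 fold change -1.38, standard error 0.09, adjusted p = 1.9e-09). MMP15 stood at 50.04, 51.3 and 50.4 CPM in MB157 iSOX2, against 50.5, 52.5 and 47.8 CPM in MB157 iEV, and the libraries of both groups overlapped. It did not pass the test (standard error 0.04 around a log2 fold change of 0.012, adjusted p = 0.815).

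The metalloproteinases that were near 0 in MB157 remained low in the presence of SOX2. MMP14 had 0.417, 0.358 and 0.316 CPM in MB157 iSOX2, against 0.524, 0.475 and 0.638 CPM in MB157 iEV, from 47 and 63 counts. In the second fit it did not pass the test (log2 fold change -0.59, standard error 0.34, adjusted p = 0.154). MMP2 had 35 counts in MB157 iSOX2 and 15 in MB157 iEV and did not pass either (log2 fold change 1.04, standard error 0.58, adjusted p = 0.145). MMP9 stood at 1.00, 0.627 and 1.11 CPM in MB157 iSOX2, against 0.401, 0.404 and 0.196 CPM in MB157 iEV, and it was higher in the second fit (log2 fold change 1.45, standard error 0.36, adjusted p = 0.0032), in which 28.4% of genes were called higher. MMP13 had 2 counts in MB157 iSOX2 and 9 in MB157 iEV, a ratio of 5.06 in the direction of a fall with a 95% counting interval of 1.05 to 48.1. MMP1, MMP10 and MMP3 had 1, 3 and 1 counts in MB157 iSOX2 and 0 in MB157 iEV, so that no difference was detectable at this depth. In this comparison 3 members were in the authors' filtered table, of which TIMP1 was higher, MMP7 was lower and MMP15 did not pass. The median log2 fold change of these 3 was 0.012, against -0.00 over all 10904 genes, of which 32.5% were called higher and 33.9% lower.

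Expression of N1-ICD in resistant cells raised MMP7 and TIMP1 and lowered MMP1, MMP2, MMP10, MMP13 and, by less, MMP15. MMP7 stood at 332, 279 and 338 CPM in MB157R iN1-ICD, against 28.6, 25.1 and 18.7 CPM in MB157R iEV. It was 13.1-fold higher with N1-ICD (log2 fold change 3.72, standard error 0.13, adjusted p = 2.9e-09). MMP7 is part of the NOTCH signature that the authors chose partly on these libraries, so its rise here is not independent evidence of a response to NOTCH. TIMP1 stood at 38.6, 33.8 and 38.2 CPM in MB157R iN1-ICD, against 19.1, 20.5 and 20.3 CPM in MB157R iEV, a 1.85-fold rise (log2 fold change 0.89, standard error 0.06, adjusted p = 6.3e-07).

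MMP13 fell the most. It stood at 2.87, 2.31 and 3.02 CPM in MB157R iN1-ICD, against 50.8, 50.9 and 37.9 CPM in MB157R iEV, and was 17.0-fold lower with N1-ICD (log2 fold change -4.07, standard error 0.14, adjusted p = 2.7e-09). MMP10 stood at 23.9, 20.3 and 20.8 CPM in MB157R iN1-ICD, against 106, 112 and 71.2 CPM in MB157R iEV, a 4.45-fold fall (log2 fold change -2.14, standard error 0.15, adjusted p = 6.5e-07). MMP2 stood at 132, 149 and 121 CPM in MB157R iN1-ICD, against 362, 376 and 392 CPM in MB157R iEV, and was 2.81-fold lower (log2 fold change -1.48, standard error 0.07, adjusted p = 1.8e-08). No library of MB157R iN1-ICD reached the lowest MB157R iEV library for these 3 genes. MMP1 stood at 234, 208 and 234 CPM in MB157R iN1-ICD, against 378, 379 and 405 CPM in MB157R iEV, a smaller fall of 1.72-fold (log2 fold change -0.77, standard error 0.05, adjusted p = 3.9e-07).

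The membrane-type genes moved least. MMP15 stood at 38.6, 37.6 and 36.8 CPM in MB157R iN1-ICD, against 40.6, 43.2 and 43.0 CPM in MB157R iEV (log2 fold change -0.16, standard error 0.04, adjusted p = 0.0090). MMP14 stood at 815, 767 and 723 CPM in MB157R iN1-ICD, against 809, 798 and 910 CPM in MB157R iEV, with overlapping libraries. It did not pass the test (log2 fold change -0.12, standard error 0.06, adjusted p = 0.1003), although it did without a filter on low counts (log2 fold change -0.15, adjusted p = 0.0361) and in a fit over all 12 libraries (log2 fold change -0.13, adjusted p = 0.0306). MMP9 stood at 3.68, 2.77 and 3.26 CPM in MB157R iN1-ICD, against 2.34, 2.89 and 1.23 CPM in MB157R iEV. Its libraries overlapped and it did not pass the test (log2 fold change 0.61, standard error 0.26, adjusted p = 0.0632), but it did in 5 of 14 alternatives, among them DESeq2 (adjusted p = 0.0296) and the fit without MB157R iEV replicate 2 (log2 fold change 0.88, adjusted p = 0.0129). MMP3 had 0 counts in MB157R iN1-ICD and 2 in MB157R iEV.

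Of the 9 members tested, 2 rose and 5 fell with N1-ICD, while 2 did not pass, with a median log2 fold change of -0.16. Over all 11210 genes, 29.8% were called higher and 29.3% lower, with a median of -0.00. The plot of fold changes sets the 3 comparisons side by side. TIMP1 was higher in each of them, and MMP7 was higher in MB157R and with N1-ICD and lower with SOX2.

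**Figure D1:**
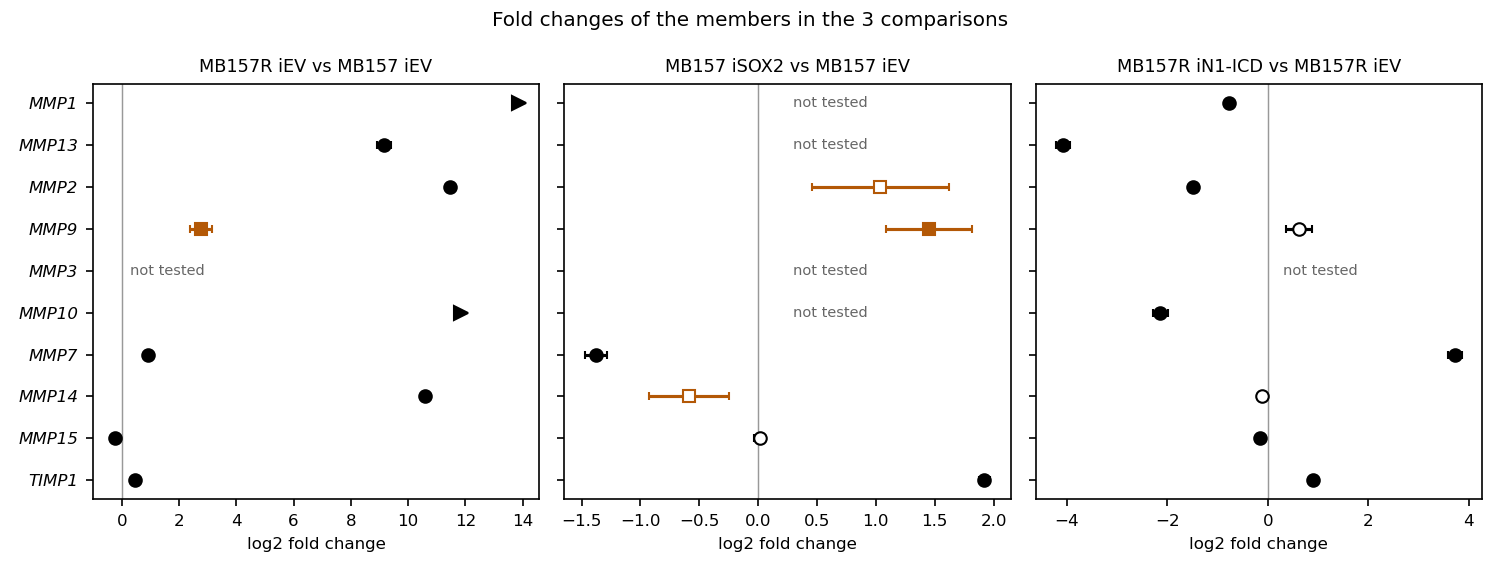
Log2 fold change of each member in the 3 comparisons, with bars of 1 standard error and a separate scale for each panel. Black circles come from the authors' filtered table and brown squares from the fit over genes with a mean count of at least 5. Filled symbols passed the test, open symbols did not, and black triangles are lower bounds for MMP1 and MMP10, which had 0 counts in MB157 iEV. MMP13 with N1-ICD stood lowest, at -4.07, and MMP2 in MB157R stood at 11.47.

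The order of the groups differed between members. MMP1, MMP2, MMP10 and MMP13 were highest in MB157R iEV, next in MB157R iN1-ICD, and lowest in the MB157 groups. MMP14 had the same order, but its MB157R groups overlapped. MMP7 had the order MB157R iN1-ICD, MB157R iEV, MB157 iEV and MB157 iSOX2, with no overlap between neighbours. TIMP1 had the order MB157 iSOX2, MB157R iN1-ICD, MB157R iEV and MB157 iEV, also with no overlap between neighbours, and MMP15 was highest in the MB157 groups, which overlapped.

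Single libraries within a group did not move all members alike. MB157R iEV replicate 3 was the lowest of its group for MMP7, MMP9, MMP10 and MMP13, and the highest for MMP1, MMP2 and MMP14. In MB157R iN1-ICD, replicate 2 had the lowest NOTCH1, at 1760 CPM against 2617 and 2588 CPM in replicates 1 and 3 of the same group, and it was also the lowest for MMP7, MMP9, MMP13, MMP1, MMP10 and TIMP1 and the highest for MMP2. With each library left out in turn, the log2 fold change with N1-ICD ranged from 3.57 to 3.87 for MMP7, from -4.20 to -3.97 for MMP13, from -2.32 to -2.02 for MMP10, from -1.57 to -1.42 for MMP2 and from 0.86 to 0.95 for TIMP1, and each stayed past the threshold.

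MMP7, MMP10, MMP1, MMP3 and MMP13 lie in 1 cluster of 9 protein-coding genes, all of them MMPs on the minus strand, which spans 435225 bases of chromosome 11q22. In genome order it holds MMP7, MMP20, MMP27, MMP8, MMP10, MMP1, MMP3, MMP12 and MMP13. The plot of the cluster shows that high genes were interspersed with runs of near-zero genes along it. In MB157R iEV, MMP10, MMP1 and MMP13 averaged 96.4, 388 and 46.5 CPM, whereas MMP3 and MMP12, which lie between MMP1 and MMP13, averaged 0.0139 and 0.376 CPM. MMP27 had 0 counts in all libraries. With N1-ICD, MMP7 at one end of the cluster was 13.1-fold higher and MMP13 at the other end was 17.0-fold lower than in MB157R iEV. MMP8, neutrophil collagenase, had 72 counts in MB157R iN1-ICD and 5 in MB157R iEV, and MMP20, enamelysin, had 81 counts in MB157 iSOX2 and 22 in MB157 iEV. MMP1, MMP3 and MMP10 overlap WTAPP1 on the opposite strand. Counting used the strand of the reads, and WTAPP1 had between 14 and 23 counts in each group.

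The promoters of MMP7 and MMP10 are shown because both genes lie in this cluster and moved in opposite directions with N1-ICD, and that of TIMP1 because it rose in all 3 comparisons. RefSeq windows on GRCh38.p14, from 250 bases before to 50 bases after the start of the gene, were matched for 5 of the 10 members: MMP7, MMP10, MMP14, MMP15 and TIMP1. Capitals mark exact matches on either strand of TGAGTCA (AP-1), TATAAA (the motif of the TATA box), TGGGAA (RBPJ core), CATTGT (the first SOX core) and CTTTGT (the second SOX core), and no matches overlapped in these windows. The windows are chr11:102530698-102530997 on the minus strand for MMP7, chr11:102780579-102780878 on the minus strand for MMP10 and chrX:47582186-47582485 on the plus strand for TIMP1.
MMP7: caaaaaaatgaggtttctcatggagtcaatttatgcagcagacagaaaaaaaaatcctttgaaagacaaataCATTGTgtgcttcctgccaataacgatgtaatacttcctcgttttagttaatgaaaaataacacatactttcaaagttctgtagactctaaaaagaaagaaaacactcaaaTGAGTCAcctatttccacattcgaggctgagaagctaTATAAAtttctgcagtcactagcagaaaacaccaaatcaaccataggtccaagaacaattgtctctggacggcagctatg
MMP10: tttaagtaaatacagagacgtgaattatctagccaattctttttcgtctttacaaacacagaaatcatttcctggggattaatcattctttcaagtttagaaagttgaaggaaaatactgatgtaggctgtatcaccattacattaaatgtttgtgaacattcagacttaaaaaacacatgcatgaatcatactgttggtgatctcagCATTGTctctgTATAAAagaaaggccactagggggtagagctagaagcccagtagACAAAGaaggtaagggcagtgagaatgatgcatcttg
TIMP1: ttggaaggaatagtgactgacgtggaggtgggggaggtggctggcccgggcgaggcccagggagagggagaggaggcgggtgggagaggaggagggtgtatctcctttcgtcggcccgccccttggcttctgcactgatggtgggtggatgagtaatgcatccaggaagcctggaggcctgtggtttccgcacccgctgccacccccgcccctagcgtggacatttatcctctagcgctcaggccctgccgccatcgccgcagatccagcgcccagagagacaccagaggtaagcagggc
MMP7 holds an AP-1 match at -67, a TATA box at -30 and a SOX core CATTGT at -178, counted from the start of the gene. MMP10 holds a TATA box at -31, CATTGT at -42 and, on the other strand, CTTTGT at +14, read as ACAAAG in the line above. TIMP1 and MMP14 held none of the 5 motifs and MMP15 held TGGGAA at -156. Among 35116 promoter windows of 300 bases, TGAGTCA occurred in 4.95%, TATAAA in 11.5%, TGGGAA in 24.0%, CATTGT in 10.8% and CTTTGT in 16.1%. The matches describe these windows and were not compared with the counts.

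Levels of different genes were compared after division by the length of the Ensembl canonical transcript of GENCODE v44, which runs from 0.769 kb for TIMP1 to 4.062 kb for MMP15. On this scale of CPM per kb, MMP14 and MMP1 were the main MMPs of MB157R iEV, at 227 ± 16.6 and 197 ± 7.75, followed by MMP2 at 107 ± 4.22 and MMP10 at 54.8 ± 12.5. In MB157R iN1-ICD MMP7 led, at 283 ± 29.1, before MMP14 at 208 ± 12.5 and MMP1 at 114 ± 7.55. In MB157 iSOX2 and MB157 iEV, MMP15 was at 12.5 ± 0.162 and 12.4 ± 0.585, and MMP7 at 4.33 ± 0.199 and 11.3 ± 1.06. MMP7 made up 42.3% of the sum of the 9 MMPs in MB157R iN1-ICD and 3.40% in MB157R iEV, and it made up 24.9% in MB157 iSOX2 and 46.9% in MB157 iEV.

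The sum of the 9 MMPs per kb was 699, 628 and 674 in MB157R iN1-ICD and 629, 632 and 645 in MB157R iEV. It was 17.4, 17.3 and 17.5 in MB157 iSOX2 and 23.8, 23.7 and 24.5 in MB157 iEV. Divided by TIMP1 per kb, the sum gave ratios of 13.9, 14.3 and 13.6 in MB157R iN1-ICD against 25.3, 23.7 and 24.5 in MB157R iEV, and 0.235, 0.241 and 0.252 in MB157 iSOX2 against 1.26, 1.22 and 1.33 in MB157 iEV. No 2 groups overlapped in this ratio, which is a description of mRNA and was not tested, since its genes were chosen with results known. The sum includes the membrane-anchored MMP14 and MMP15, whereas TIMP1 was described above as an inhibitor of most secreted MMPs. MMP15 made up 71.7% of the sum in MB157 iSOX2 and 51.6% in MB157 iEV. MMP14 made up 35.6% in MB157R iEV and 31.2% in MB157R iN1-ICD. The ratio also counts TIMP1 alone and leaves out the other inhibitors, so it is no measure of the whole balance. TIMP2 averaged 569, 535, 412 and 393 CPM in MB157R iN1-ICD, MB157R iEV, MB157 iSOX2 and MB157 iEV. TIMP3 averaged 190, 161, 0.503 and 0.608 CPM in the same order.

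For each member that reached 10 CPM in a group, the genes with the most similar pattern were sought among 10588 genes that also reached 10 CPM, by Pearson's r of log2(CPM + 0.5) over the 12 libraries. The 12 points are 4 groups of 3 libraries and share line and treatment, so r mostly follows the difference between the lines. The value of r does not measure the size of a change, so a gene that changed far less than the member can lead. FLRT2 was most like MMP1 (r = 0.9999), OCIAD2 was most like MMP2 (r = 0.9997), ANKRD22 was most like MMP10 (r = 0.9991), PPP1R14B was most like MMP13 (r = 0.995) and HRH1 was most like MMP14 (r = 0.9999). Such patterns were common, with 3050 genes above 0.9 for MMP1 and 3077 for MMP14. The pattern of MMP7 was shared by fewer genes, 379 above 0.9, led by ME2, RAP1GAP and GFI1 (r = 0.992, 0.991 and 0.990). That of TIMP1 was shared by 63, led by NUDT4 and ZNF362 (r = 0.986 and 0.985). TIMM8A was most like MMP15 (r = 0.988). In MB157R iN1-ICD, MB157R iEV, MB157 iSOX2 and MB157 iEV, OCIAD2 averaged 117, 143, 46.2 and 44.8 CPM. In the same order MMP2 averaged 134, 377, 0.267 and 0.125 CPM. PPP1R14B and ME2 likewise changed far less than MMP13 and MMP7. HRH1, at 170, 187, 0.0238 and 0.0857 CPM, was near 0 in both MB157 groups like MMP14.

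Other genes of proteolysis around the cell were described from fixed lists, to be read against the shares of all genes called given above. Listed genes near 0 counts in MB157 iEV, among them SPOCK1, TIMP3, TIMP4, SERPINB2, ADAM19, ADAM28, ADAMTS12 and MMP28, passed the filter through their MB157R libraries alone and so had to differ, and the counts of these lists are a description that supports nothing about a list. Between MB157R iEV and MB157 iEV, 10 of 10 tested genes of plasminogen activation were higher in MB157R. Plasmin made by this system activates several proMMPs. SERPINB2, which inhibits the plasminogen activators, stood at 84.6 ± 19.0 CPM in MB157R iEV, against 0.0327 ± 0.0567 CPM in MB157 iEV. All 5 tested inhibitors of MMPs other than TIMP1 were higher too, among them SPOCK1, a proteoglycan, at 217 ± 13.1 against 0.155 ± 0.0578 CPM. TIMP4 stood at 3.15 ± 0.430 CPM in MB157R iEV against 0 counts, at least 120-fold higher. Of 20 tested activators and surface partners 19 were higher and 1 was lower, with CLDN1, a claudin, at 789 ± 36.5 CPM in MB157R iEV against 1.24 ± 0.158 CPM in MB157 iEV. CD63, a tetraspanin that binds TIMP1, was the lower one, at 157 ± 5.63 against 229 ± 2.78 CPM.

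All 9 tested ADAM genes and all 5 tested ADAMTS genes, which belong to families related to the MMPs, were higher in MB157R. ADAM19 stood at 273 ± 8.84 CPM in MB157R iEV against 0.658 ± 0.0271 CPM in MB157 iEV, and ADAMTS9 at 105 ± 9.64 against 1.28 ± 0.197 CPM. Of 6 tested other MMPs 4 were higher and 1 lower, with MMP28, epilysin, at 11.1 ± 0.850 against 0.0852 ± 0.0328 CPM and MMP25, a membrane-anchored MMP of leukocytes, at 0.395 ± 0.121 against 19.1 ± 1.72 CPM. The list of AP-1 and PEA3 factors, known to bind MMP promoters, also holds ETS1, ETS2, ELF3 and RUNX2, which are neither. Among 15 tested genes of this list 10 were higher and 5 were lower. FOSL1 stood at 404 ± 20.0 CPM in MB157R iEV against 2.54 ± 0.540 CPM in MB157 iEV, and ELF3 at 82.3 ± 3.63 against 188 ± 3.94 CPM. The 7 tested neighbours of the 11q22 cluster that are no MMPs were all higher, led by BIRC3, an inhibitor of apoptosis, at 136 ± 4.75 against 2.03 ± 0.314 CPM.

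With SOX2 these lists were mixed. Of 7 tested genes of plasminogen activation 5 were lower and 1 higher, among them PLAU, which encodes urokinase, at 2.92 ± 0.163 CPM in MB157 iSOX2 against 8.54 ± 0.907 CPM in MB157 iEV. Of 16 activators and surface partners 10 were higher and 4 lower, with HPSE, heparanase, at 77.8 ± 3.17 against 5.47 ± 0.653 CPM and TMPRSS2, a membrane serine protease, at 23.1 ± 0.727 against 93.0 ± 1.66 CPM. Of 14 genes in the list of AP-1 and PEA3 factors 6 were higher and 6 lower. ETV5 stood at 20.3 ± 1.16 against 7.24 ± 0.375 CPM and ETS1 at 40.0 ± 0.576 against 107 ± 1.56 CPM. Among the other MMPs 1 of 4 was higher and 2 were lower, MMP25 at 4.47 ± 0.810 against 19.1 ± 1.72 CPM. The count lower was 1 without MB157 iEV replicate 1 or 3 or any 1 of the 3 MB157 iSOX2 replicates. MMP17, the other gene called lower, also did not pass with DESeq2 (adjusted p = 0.0564) or with library totals alone (adjusted p = 0.0879). Of 5 neighbours of the cluster 1 was higher and 3 were lower. Calls were 1 higher of 2 other inhibitors, 2 higher and 1 lower of 6 ADAM genes, and 1 higher and 1 lower of 3 ADAMTS genes. The call among the other inhibitors was TIMP2 (log2 fold change 0.07, adjusted p = 0.0358), chosen after its values were seen. It did not hold without MB157 iEV replicate 2 or MB157 iSOX2 replicate 1 or 2, or with a replicate block (adjusted p = 0.0636). It also did not hold with a minimum mean count of 5 (adjusted p = 0.0632), with no filter (0.0776) or in the fit over all 12 libraries (0.106).

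With N1-ICD, 8 of 9 tested ADAM genes were lower and 1 did not pass, with a median of -0.29, ADAM28 at 7.37 ± 0.737 CPM in MB157R iN1-ICD against 14.3 ± 2.16 CPM in MB157R iEV. Of 20 activators and surface partners 6 were higher and 9 lower, with KLK5, a kallikrein, at 3.32 ± 0.524 against 14.9 ± 2.20 CPM and TMPRSS2 at 316 ± 29.6 against 177 ± 3.32 CPM. Of 10 genes of plasminogen activation 3 were higher and 4 lower. SERPINB2 stood at 606 ± 31.4 against 84.6 ± 19.0 CPM and PLAU at 1788 ± 47.0 against 1133 ± 32.7 CPM. Of 14 genes in the list of AP-1 and PEA3 factors 8 were higher and 4 lower. FOSL1 stood at 220 ± 5.42 against 404 ± 20.0 CPM and ATF3 at 32.2 ± 3.37 against 7.72 ± 0.0906 CPM. Other inhibitors gave 1 higher and 2 lower of 5, with SPOCK1 at 133 ± 8.02 against 217 ± 13.1 CPM. Of 5 other MMPs 3 were higher and 1 lower, of 6 ADAMTS genes 2 were higher and 2 lower, with ADAMTS1 at 146 ± 7.49 against 30.3 ± 2.11 CPM, and of 7 neighbours of the cluster 1 was higher and 3 were lower. Without MB157R iN1-ICD replicate 1 or 2 or MB157R iEV replicate 1 or 2, 1 ADAMTS gene was called higher. The ADAMTS genes called lower were 3 without MB157R iN1-ICD replicate 1, and 1 without MB157R iN1-ICD replicate 3 or MB157R iEV replicate 1. Of the other MMPs 2 were called lower without MB157R iN1-ICD replicate 2 or MB157R iEV replicate 1, or with a replicate block.

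**Figure D2:**
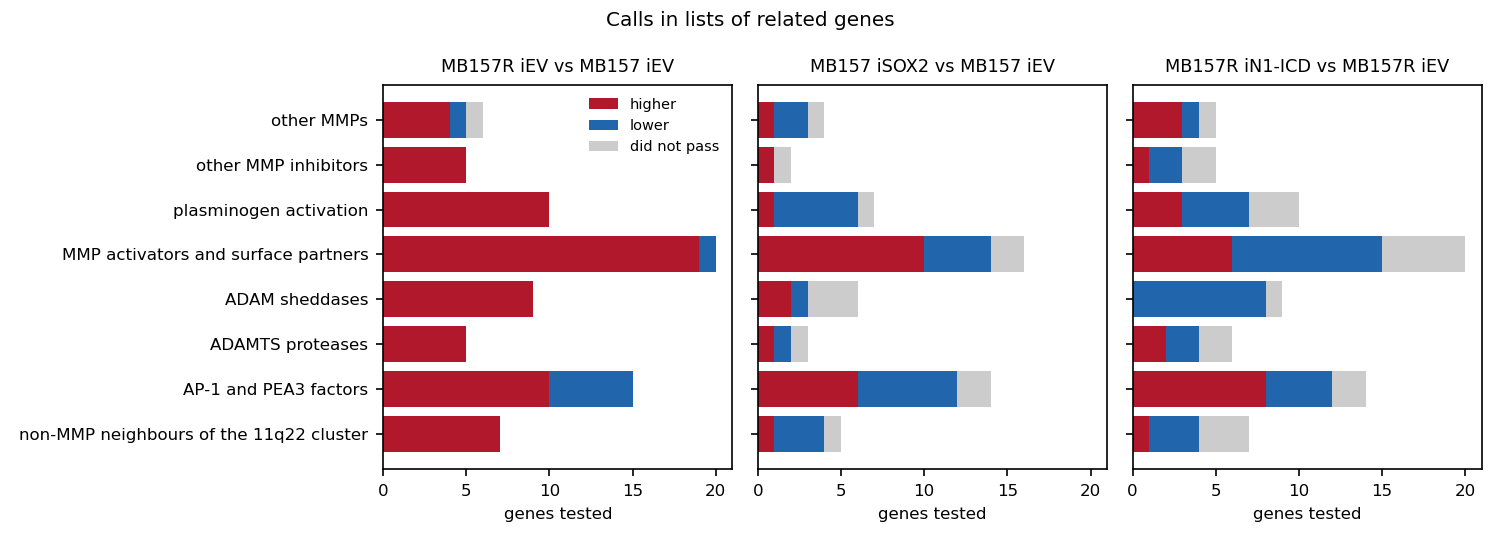
Number of tested genes of each list that were higher, lower or did not pass edgeR's test at an adjusted p under 0.05, in the 3 comparisons. Bars are stacked to the number tested, such as 19 higher and 1 lower of 20 activators and surface partners in MB157R iEV against MB157 iEV.

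Markers of other cell types that express MMPs and TIMP1 also moved between groups. The summed level of 8 fibroblast markers was 160 to 169 CPM in MB157R iN1-ICD, 76.6 to 89.7 CPM in MB157R iEV, 69.3 to 75.9 CPM in MB157 iSOX2 and 42.6 to 50.2 CPM in MB157 iEV. In these 4 groups 4, 4, 2 and 2 of the 8 averaged at least 1 CPM. COL1A1 took most of the sum in MB157R, and DCN, LUM and COL3A1 averaged at most 0.214 CPM. PDGFRA went the other way between the lines, at means of 3.84, 3.20, 45.0 and 27.4 CPM in the same order. It took most of the sum in the MB157 groups. The sum of 4 endothelial markers was 26.0 to 30.1, 4.24 to 4.66, 103 to 111 and 7.43 to 8.32 CPM in the same groups. PECAM1 stood at up to 99.9 CPM in MB157 iSOX2, where CDH5, VWF and KDR averaged 0.0151, 7.76 and 3.55 CPM. The sum of 8 leukocyte and macrophage markers was 16.4 to 17.7, 4.73 to 6.11, 12.5 to 14.9 and 41.6 to 45.2 CPM, with CD14 at up to 39.3 CPM in MB157 iEV. CD68 averaged 11.7, 4.24, 1.07 and 2.27 CPM in the 4 groups, and PTPRC averaged at most 0.215 CPM. The part of these markers in the results was not tested.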

How the data were processed

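RNA-seq of 12 libraries was used. The authors deposited a table of estimated counts (expected counts before any normalization) for 29744 gene entries, made with STAR and Salmon on hg38. They also deposited 3 filtered tables of log2 TMM-scaled CPM (edgeR 3.42.4, limma 3.56.2), used here for their genes only. Per the authors, genes with a low mean TPM or count, uncharacterized genes and pseudogenes had been removed. The gene annotation is not given in the sources used here.

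Counts were rounded and tested in 6 libraries per comparison with edgeR's quasi-likelihood test (edgeR 4.0.16, R 4.3.3), TMM factors and Benjamini-Hochberg adjustment over all genes of the filtered table. Members outside it were tested among genes with a mean count of at least 5. TMM factors over 12 libraries, from 0.978 to 1.03, gave the levels. Log2 fold changes of genes with 0 counts in a group depend on the prior count and are replaced by bounds. The p-values reflect only how much these libraries vary. The test was tested on simulated data. No replicate block was used in the main fits. Deviations of replicates of the same number had r between -0.245 and 0.0632, and those of unlike number between -0.219 and 0.214. With 3 libraries per group these values cannot show whether replicates pair.

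The members and lists were chosen with earlier results of these data known. Named genes were the members, the 2 most raised and 2 most lowered called genes of each list that average 1 CPM or more, of which some are printed, SOX2, NOTCH1, HEY2 and HEYL, and the 3 genes most like a member. Gene positions, lengths and strands are from GENCODE v44, in place of planned RefSeq lengths. Protein features that had been planned were not analysed here. Of 11 listed neighbours of the cluster 9 were found by symbol.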

Additional observations from a re-analysis of the deposited data

How the results depend on the processing

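Every called change of a member kept its direction and its side of the threshold under DESeq2, limma-voom, other scalings (RLE factors or totals alone), a lower or no minimum count, 1 fit of 12 libraries, a replicate block and leaving out each library. The exceptions were members that had not passed: MMP9 and MMP14 with N1-ICD passed in some alternatives, and the log2 fold change of MMP15 with SOX2 ranged from -0.024 (without MB157 iEV replicate 3) to 0.048 with 1 library left out. With SOX2, 2 members were called higher when the minimum was a mean count of 5 or none, against 1, because MMP9 was then tested. Genes called lower in MB157R rose to 7914 without a filter, against 5177, as more genes were tested. With library totals alone, 60.6% of the calls with SOX2 were higher (4396 higher, 2859 lower), against 48.9% (3539 and 3698).

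The sources used here do not say whether replicate numbers pair the libraries, and correlations over 3 libraries per group cannot settle it. With the replicate block, MMP9 with N1-ICD passed (log2 fold change 0.64, adjusted p = 0.0433) and no other call of a member changed. With 1 library left out, 2 to 3 members were called higher and 5 lower with N1-ICD, 1 higher and 1 lower with SOX2, and 7 higher and 1 lower in MB157R. Where an arm kept 2 libraries, their spread was taken as that of the others. Over all alternatives, 55 counts of calls in the lists moved by over 1.5 times and 617 did not.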
